A study of Homo sapiens with 17 samples.

Results

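The proteasome subunit genes were examined as one family in m6A-seq of 3 prostate cell lines. A listed region belonged to the family when the gene names written beside it included an exon, an intron, or a promoter-marked exon or intron of a gene named PSMA to PSMG followed by digits. This rule uses gene names alone. It took 268 of 110260 regions in LNCaP, 214 of 77311 in 22Rv1 and 390 of 139373 in HPr1AR, which makes 872 of 326944 regions in all. The regions belonged to 45 genes, and each of the 45 had a region in every line. PSMB8, PSMB9 and PSMB11 have no listed region of these kinds and are not analysed here.

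In m6A-seq, fragmented RNA is pulled down with an antibody against N6-methyladenosine (m6A), a methylated base of messenger RNA, and sequenced beside a pull-down with unspecific immunoglobulin G (IgG). LNCaP derives from a metastasis of prostate cancer and responds to androgen, 22Rv1 derives from a castration-resistant prostate xenograft, and HPr1AR, not malignant, carries an androgen receptor in prostate epithelial cells. The labels give the genotype WT, a vehicle treatment whose agent they do not name, and total RNA for all samples. There were 3 m6A and 3 IgG samples of LNCaP, 2 m6A and 3 IgG samples of 22Rv1, and 3 m6A and 3 IgG samples of HPr1AR. The cancer lines were grown in serum, while HPr1AR was grown in a keratinocyte medium without serum, so malignancy, medium and line cannot be told apart. Each group is cells of a single established line, and the labels name biological triplicates without saying what separated them.

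The authors deposited 1 table per line with a p-value and a log2 fold for each region, and no value for a single sample. Whole reads behind each region were therefore rebuilt from the deposited fold and p-value, for the one window that stands for the region, as set out in the methods. Reads said below to be held by a region are those of this window. Windows of overlapping regions may lie at different places in different lines. How the windows were chosen is not stated, and the calls and p-values below make no allowance for that choice. The numerator is not named in the tables and is taken to be the m6A pull-down. The fitted depths were 3920000 m6A reads and 8870000 IgG reads in LNCaP, 3300000 and 4820000 in 22Rv1, and 5130000 and 11700000 in HPr1AR. A region is called higher or lower where the ratio of m6A to IgG reads, scaled by these depths, passed an exact binomial test with an adjusted p under 0.05 over all regions of its line. Intervals are 95% exact binomial intervals, and those of a read ratio cover counting error only, and not the spread between samples. Those of a share of regions treat regions as independent, although many belong to the same gene, so they may be too narrow. A count of 0 enters its ratio as 3 reads, which makes that ratio a limit set by the floor alone, and its interval can reach nearer to 0. In 20 family regions of LNCaP and 13 of HPr1AR no pair of whole reads was found, most often because the deposited p-value is listed as 0, and the smallest reads the table allows are given. Such ratios are lower limits, printed with the lower end of their interval as a lower limit, and 7 of them, all in LNCaP, could not be called either way. Of 5 basal markers, 1 was listed in LNCaP, 1 in 22Rv1 and 5 in HPr1AR, with 1, 0 and 2792 summed IgG reads, and of 8 luminal markers, 8, 8 and 4 were listed, with 3031, 1112 and 691 summed IgG reads.

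The 26S proteasome degrades proteins tagged with ubiquitin. Its core particle is a barrel of stacked rings, in which alpha subunits (PSMA genes) form the gates and beta subunits (PSMB genes) hold the proteolytic sites. A regulatory particle of ATPases (PSMC genes) and non-ATPase subunits (PSMD genes) binds, deubiquitinates, unfolds and feeds the substrate. Dedicated chaperones, alternative activators (PSME genes) and the inhibitor PSMF1 complete the family. Proteasome genes are transcribed together when the proteasome is impaired, through the factor NFE2L1, which binds antioxidant response elements in their promoters. m6A is written co-transcriptionally in the DRACH sequence context, is dense near stop codons and in 3′ untranslated regions, and is sparse in short internal exons.

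Promoter sequences are shown because many family regions carried a promoter mark. Their positions are on GRCh38.p14, region positions are as deposited and were not matched to it, so the sequences do not place a region. Promoters of 39 of the 45 genes were found in a RefSeq table of GRCh38.p14, as 47 promoters, each with 250 bases before and 50 bases after the start. The core of the antioxidant response element, TGACNNNGC on either strand, occurred in the 250 bases before the start of 12 of 47 family promoters (25.5%), beside 10.9% of 35116 promoters in the table. Matches were found for PSMA4, PSMB3, PSMC5, PSMD12, PSMD3, PSMD5, PSMD9, PSME1, PSME2, PSME4, PSMG1 and PSMG2. The promoters of PSME4 (chr2:53970994-53971243, minus strand) and PSMD3 (chr17:39980557-39980806, plus strand) are printed with the match in capitals. Both genes had a promoter-marked region, over no exon of another gene, called higher in every line. PSMC5, PSME1 and PSME2 also had a match and a promoter-marked region called higher in every line, but over exons of other genes. The match lies 34 bases before the start on the opposite strand in PSME4 and 37 bases before it on the same strand in PSMD3.
PSME4 promoter: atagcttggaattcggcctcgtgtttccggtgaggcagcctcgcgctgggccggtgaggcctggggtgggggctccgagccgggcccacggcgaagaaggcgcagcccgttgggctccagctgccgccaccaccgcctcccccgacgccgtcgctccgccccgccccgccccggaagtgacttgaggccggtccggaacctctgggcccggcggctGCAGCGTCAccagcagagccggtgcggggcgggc
PSMD3 promoter: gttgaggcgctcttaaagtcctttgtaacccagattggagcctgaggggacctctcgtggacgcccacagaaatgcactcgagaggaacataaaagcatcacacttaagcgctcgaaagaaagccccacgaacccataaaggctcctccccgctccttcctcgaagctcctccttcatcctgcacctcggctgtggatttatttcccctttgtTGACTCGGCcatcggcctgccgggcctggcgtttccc

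GGACT, a common form of the m6A context written in DNA letters, was searched on the transcript strand of the first 50 transcribed bases. It occurred in 2 of 47 family promoters (4.26%), beside 4.90% of all promoters in the table, and the 2 genes were PSMB4 and PSMB10. Both had 1 promoter-marked exon region in each line, described further on with the beta subunits. The stretch around each match is printed with GGACT in capitals (PSMB4, chr1:151399593-151399622, plus strand; PSMB10, chr16:67936814-67936843, minus strand). A match is a run of letters and not a mapped m6A site.
PSMB4 first bases: agcgtttttggggtcgcggtccGGACTttg
PSMB10 first bases: aagcctagcagaGGACTttttagctgctca

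The read ratios of the family lay below those of all regions in every line, while most of its genes still held a region with more m6A than IgG reads. Regions called higher numbered 68 of 268 in LNCaP (25.4%, interval 20.3 to 31.0), beside 38.0% of all regions of that line. In 22Rv1 they were 71 of 214 (33.2%, interval 26.9 to 39.9), beside 54.3% of all regions. In HPr1AR they were 84 of 390 (21.5%, interval 17.6 to 26.0), beside 38.0% of all regions. The median log2 ratio was 0.39 over family regions and 1.35 over all regions in LNCaP, 0.48 and 2.09 in 22Rv1, and 0.19 and 1.29 in HPr1AR. The medians of the family thus lay 0.96, 1.62 and 1.10 log2 units below those of all regions.

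Few regions were called lower, in the family and over all regions. They were 2 of 268 family regions in LNCaP, beside 111 of 110260 over all regions (0.101%). In 22Rv1 they were 6 of 214, beside 580 of 77311 (0.75%), and in HPr1AR 0 of 390, beside 127 of 139373 (0.0911%). The family share was thus above that of all regions in LNCaP and 22Rv1, a difference that was not tested. The 2 lower regions of LNCaP were exons of PSMB2 and PSMD1, and the 6 of 22Rv1 were exons of PSMA3, PSMA4, PSMA5, PSMD1 (2 regions) and PSME4. All 8 had another listed exon of their gene within 10000 bp on both sides, and those of PSMA4 and PSME4 carried a promoter mark. These directions rest on m6A as the numerator. With IgG as the numerator every sign would turn, so that the family would have 2, 6 and 0 regions higher and 68, 71 and 84 lower in LNCaP, 22Rv1 and HPr1AR, and medians above those of all regions. Since the median of all regions was itself far above 0, the split turns when ratios are centred on it. After centring, 31 family regions were higher and 53 lower in LNCaP (11.6% and 19.8%, beside 20.8% and 9.95% of all regions). In 22Rv1 there were 15 higher and 108 lower (7.01% and 50.5%, beside 15.9% and 16.1%), and in HPr1AR 27 higher and 76 lower (6.92% and 19.5%, beside 20.4% and 7.80%).

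**Figure D1:**
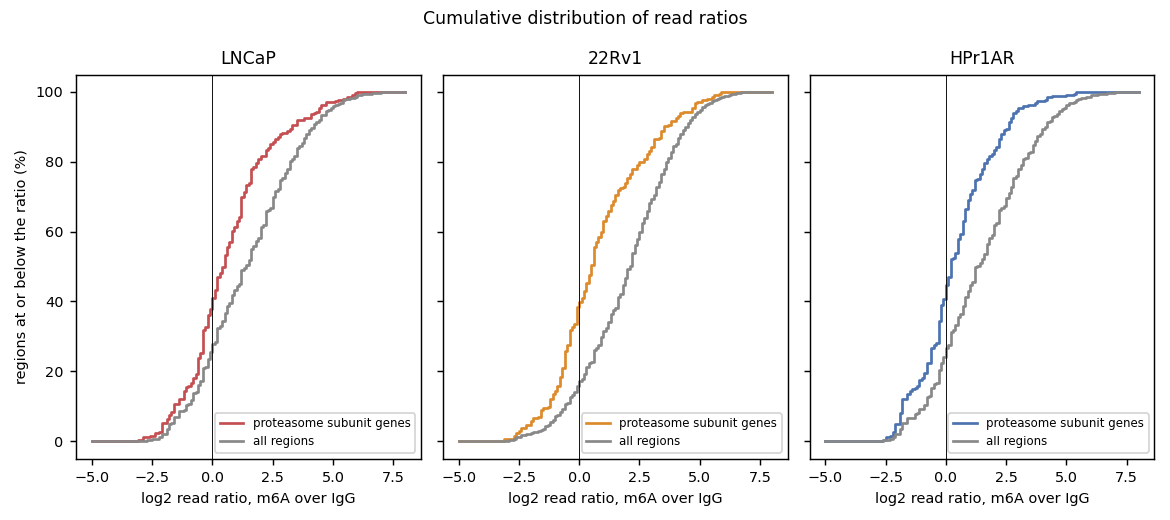
Cumulative share of regions (vertical axis, percent) at or below each log2 ratio of m6A to IgG reads (horizontal axis) for the proteasome family (coloured) and for all regions (grey) of each line. The family curve lies to the left of the grey curve in every line, with medians of 0.39 against 1.35 in LNCaP, 0.48 against 2.09 in 22Rv1 and 0.19 against 1.29 in HPr1AR.

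Depth of coverage moved with this difference. The median family region held 9 IgG reads in each line, beside 5 in LNCaP, 4 in 22Rv1 and 6 in HPr1AR over all regions. The m6A reads were 6, 9 and 5 at the median of the family, and 5, 10 and 6 over all regions. The family regions therefore held about as many m6A reads and more IgG reads than the median region, and the part of transcript abundance in this was not tested. By the adjusted p of the authors' deposited table, 255 family regions of LNCaP (95.1%), 208 of 22Rv1 (97.2%) and 374 of HPr1AR (95.9%) lay under 0.05. In the authors' deposited table the shares over all regions were 95.4% in LNCaP, 99.3% in 22Rv1 and 96.5% in HPr1AR.

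At the level of genes, 36 of 45 had a region called higher in LNCaP (80.0%), beside 90.2% of all listed genes. In 22Rv1 this held for 38 genes (84.4%), beside 90.4%, and in HPr1AR for 42 genes (93.3%), beside 92.4%. In every line at once it held for 32 of 45 genes (71.1%), beside 86.4% of all genes listed in the 3 lines. With ratios centred on the median of all regions, 20 genes of LNCaP, 10 of 22Rv1 and 18 of HPr1AR had a region called higher, and 7 had one in every line. The share of all listed genes after centring is not given here. Centring also lowered the share of all regions called higher, to 20.8% in LNCaP, 15.9% in 22Rv1 and 20.4% in HPr1AR. PSMA6 and PSMA8 had no region called higher in any line. LNCaP counts are the least certain, because 60 of its 268 family regions allowed more than 1 pair of whole reads. When the smallest pair was taken, 23.9% of regions and 35 genes of LNCaP were called higher, whereas leaving those regions out gave 20.7% of regions, 24 of 42 genes in LNCaP and 22 of 42 in all lines. Leaving out the 20 regions at a lower limit as well gave 16.0% of regions, 17 of 42 genes in LNCaP and 15 of 42 in all lines. Shares of all genes under these choices of pairs are not given here.

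**Figure D2:**
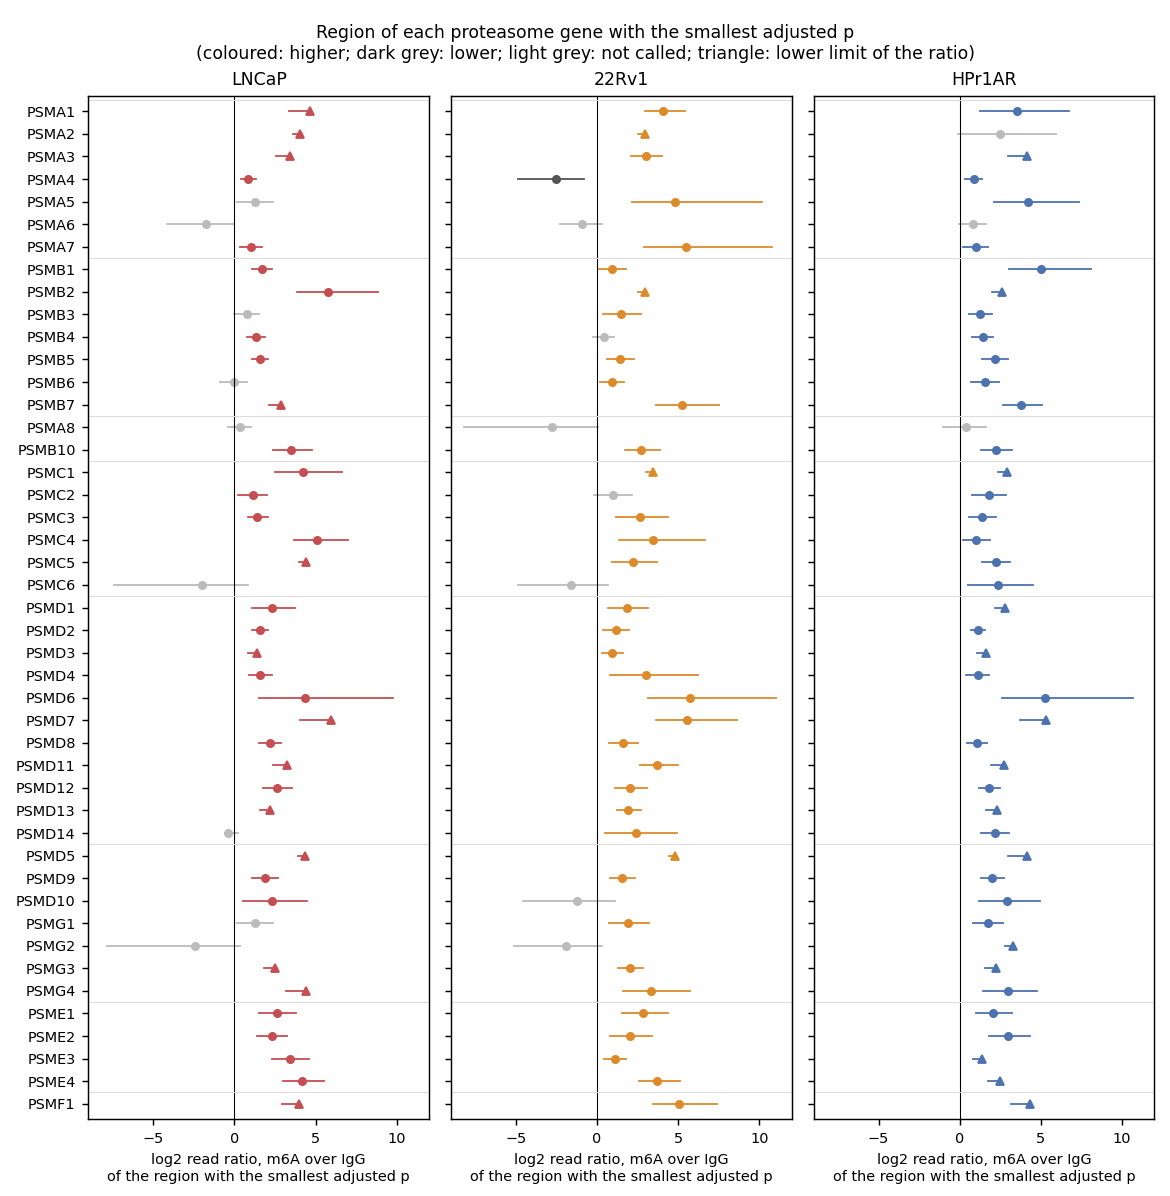
Log2 ratio of m6A to IgG reads (horizontal axis) of the region with the smallest adjusted p for each of the 45 proteasome genes (rows), by line, with 95% exact binomial intervals. Coloured points were called higher, the dark grey point (PSMA4 of 22Rv1) lower, light grey points were not called, and triangles are lower limits; faint lines part the alpha ring, beta ring, tissue-specific or inducible core, ATPases, other regulatory subunits, chaperones, activators and inhibitor from top to bottom.

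Shares of called regions differed by place within the gene. Each exon region was sorted by whether the deposited table gives another exon of the same gene within 10000 bp on both sides (internal), on one side (5′ or 3′ end, by strand) or on neither. An end in this sense closes a run of listed exons and need not be the first or last exon of the gene. Of internal exon regions, 8 of 103 were called higher in LNCaP (7.77%), 9 of 98 in 22Rv1 (9.18%) and 13 of 132 in HPr1AR (9.85%). Over all genes the internal shares were 26.9%, 32.8% and 28.8%, and the intervals of the family reached 14.7%, 16.7% and 16.3%. These differences between the family and all genes were not tested, and the intervals take regions of the same gene as independent. The median internal region of the family held 17 reads in LNCaP, 16 in 22Rv1 and 18.5 in HPr1AR, beside 13, 13 and 15 over all genes. Family regions at 3′ ends held a median of 33, 30.5 and 42.5 reads in these lines, and those at 5′ ends 31, 30 and 32. Median widths were 710, 520 and 600 bp at 3′ ends and 640, 310 and 610 bp at 5′ ends, beside 230, 190 and 250 bp inside. The part of depth and width in the shares was not tested.

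The 5′ ends of family genes gave shares near those of all genes in 22Rv1 and HPr1AR. There, 15 of 35 regions were called higher in LNCaP (42.9%), 20 of 33 in 22Rv1 (60.6%) and 23 of 40 in HPr1AR (57.5%), beside 55.3%, 60.5% and 56.6% over all genes. At the 3′ ends 24 of 47 regions were called higher in LNCaP (51.1%), 20 of 48 in 22Rv1 (41.7%) and 20 of 50 in HPr1AR (40.0%), beside 61.7%, 68.0% and 61.4%. Exon regions with no neighbouring exon gave 5 of 7 in LNCaP (71.4%), 5 of 7 in 22Rv1 (71.4%) and 5 of 6 in HPr1AR (83.3%), beside 62.6%, 69.1% and 64.2%. Introns gave 16 of 76 in LNCaP (21.1%), 17 of 28 in 22Rv1 (60.7%) and 23 of 162 in HPr1AR (14.2%), beside 24.7%, 55.8% and 24.6%. All exon regions of the family together gave 52 of 192 in LNCaP (27.1%), beside 42.8% of all exon regions. The same count was 54 of 186 in 22Rv1 (29.0%), beside 49.8%, and 61 of 228 in HPr1AR (26.8%), beside 43.5%.

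**Figure D3:**
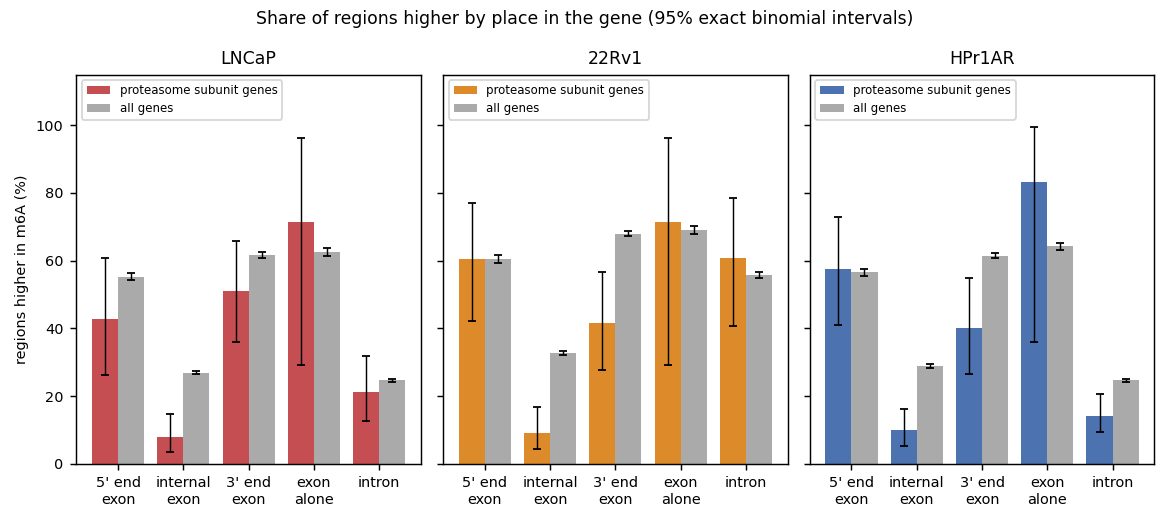
Share of regions called higher (vertical axis, percent) by place in the gene for the proteasome family (coloured) and for all genes (grey) in each line, with 95% exact binomial intervals. Internal exons of the family stand at 7.77%, 9.18% and 9.85%, the lowest of its bars, while 5′ ends stand at 42.9%, 60.6% and 57.5%.

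The alpha ring genes PSMA1 to PSMA7 had 14 of 59 regions called higher in LNCaP (23.7%), 13 of 46 in 22Rv1 (28.3%) and 9 of 51 in HPr1AR (17.6%). Shares over all regions were 38.0%, 54.3% and 38.0% in these lines, and 90.2%, 90.4% and 92.4% of all listed genes had such a region. The alpha ring genes with such a region were 5 of 7 in LNCaP, 6 of 7 in 22Rv1 and 5 of 7 in HPr1AR. PSMA1 had the most in both cancer lines, chiefly upstream of the 5′ end region that all lines share. Beyond position 14542370 of chromosome 11, the last position listed for PSMA1 in HPr1AR, LNCaP had 14 PSMA1 regions with 8 called higher, 22Rv1 had 8 with 6 called higher, and HPr1AR had 0. The far end of this stretch was a promoter-marked exon shared with PDE3B, at chr11:14665011-14666860 in LNCaP. It held 56 m6A against 5 IgG reads in LNCaP (log2 ratio 4.66, lower limit 3.36) and 80 against 7 in 22Rv1 (4.06, interval 2.95 to 5.42). An intron region near chr11:14621691-14622490 held 41 against 2 reads in LNCaP (5.54, interval 3.59 to 8.63) and 38 against 0 in 22Rv1 (at least 4.21). Both places were called higher in the cancer lines, and no PSMA1 region is listed there for HPr1AR.

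At the 3′ end of PSMA2, which lies within C7orf25, 22 m6A reads stood against 0 IgG reads in LNCaP and 16 against 0 in 22Rv1. With the floor of 3 IgG reads the log2 ratio was at least 4.05 and at least 2.96. The same 3′ end in HPr1AR held 16 against 45 reads (-0.30, interval -1.22 to 0.55, not called), and the HPr1AR region of PSMA2 with the smallest adjusted p, with 5 against 2 reads, was not called either. The difference between lines was not tested as such. PSMA3 was called higher in an intron that overlaps an exon of PSMA3-AS1, its antisense neighbour, with 58 against 12 reads in LNCaP (3.45, lower limit 2.54) and 66 against 12 in 22Rv1 (3.01, interval 2.11 to 4.03). In HPr1AR the region there also reached an exon of PSMA3 and held 54 against 7 reads (4.14, lower limit 3.00). The strand of the reads is not given in the sources used here, so reads of PSMA3 and its antisense gene cannot be told apart. An internal exon of PSMA3 in 22Rv1 held 4 against 24 reads and was called lower (-2.04, interval -4.03 to -0.50).

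PSMA4 combined a 3′ end called higher with an internal exon that went the other way in 1 line. The 3′ end held 73 m6A against 91 IgG reads in LNCaP, 47 against 35 in 22Rv1 and 53 against 67 in HPr1AR. Its log2 ratios of 0.86, 0.97 and 0.85 all fall below 0 after centring on all regions (-0.49 in LNCaP, -1.12 in 22Rv1 and -0.43 in HPr1AR), and the LNCaP call is lost at the smallest of 15 possible pairs of reads. The promoter-marked internal exon held 3 against 25 reads in 22Rv1 and was called lower (-2.51, interval -4.88 to -0.80, adjusted p = 0.0029 by the exact binomial test). PSMA5 was called higher at its promoter-marked 5′ end in 22Rv1, with 19 against 1 reads (4.80, interval 2.14 to 10.2), and in HPr1AR, with 16 against 2 (4.19, interval 2.10 to 7.36). The LNCaP 5′ end of PSMA5 held 16 against 15 reads and missed the threshold (1.27, interval 0.16 to 2.39, adjusted p = 0.0606 by the exact binomial test).

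PSMA7 was called higher at its 3′ end with 30 against 1 reads in 22Rv1 (5.45, interval 2.87 to 10.8) and 29 against 33 in HPr1AR (1.00, which centring turns to -0.28). These regions are listed at chr20:60711751-60715340 in 22Rv1 and chr20:60711311-60713890 in HPr1AR, and their windows may differ in place. In LNCaP the called region of PSMA7 was its 5′ end, with 36 against 40 reads (1.03, which centring turns to -0.32). PSMA6 had 5 listed regions in LNCaP, 4 in 22Rv1 and 5 in HPr1AR, all shared with PRORP, and none was called. Its 3′ end held 22 against 46 reads in LNCaP, 8 against 22 in 22Rv1 and 8 against 37 in HPr1AR. PSMA8, which replaces an alpha subunit in the testis, was listed through introns alone. Its main region held 27 against 49 reads in LNCaP (0.32, and -1.03 after centring), 23 against 20 in 22Rv1 and 9 against 16 in HPr1AR, and none was called.

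The constitutive beta ring genes PSMB1 to PSMB7 had 15 of 44 regions called higher in LNCaP (34.1%), 11 of 28 in 22Rv1 (39.3%) and 16 of 72 in HPr1AR (22.2%). All regions of these lines gave 38.0%, 54.3% and 38.0%. The genes of the 3 catalytic subunits are PSMB5, PSMB6 and PSMB7. PSMB5, which encodes the chymotrypsin-like subunit and main target of bortezomib, was called along most of its length, with 4 of 4 regions in LNCaP, 3 of 4 in 22Rv1 and 4 of 6 in HPr1AR. Its 3′ end, at chr14:23495061-23495600 in LNCaP, held 80 against 60 reads in LNCaP (1.59, interval 1.09 to 2.10), 43 against 32 in 22Rv1 (0.97, which centring turns to -1.12) and 57 against 38 in HPr1AR (1.78). The 22Rv1 call is lost at the smallest of 2 possible pairs of reads. Toward the start of the gene, a promoter-marked exon held 44 against 29 reads in LNCaP (1.78), 37 against 20 in 22Rv1 (1.43, which centring turns to -0.66) and 45 against 23 in HPr1AR (2.16).

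PSMB6, the caspase-like subunit, had 1 listed region that covered the gene. It held 19 against 44 reads in LNCaP, 40 against 31 in 22Rv1 and 28 against 22 in HPr1AR. The log2 ratio was -0.03 in LNCaP (interval -0.89 to 0.77, not called), 0.92 in 22Rv1 (0.20 to 1.64, and -1.18 after centring) and 1.54 in HPr1AR (0.68 to 2.41). The intervals of the lines overlap, and lines were not tested against each other. PSMB4, a structural beta subunit, also had 1 region, with 64 against 58 reads in LNCaP (1.32, interval 0.78 to 1.86, and -0.03 after centring), 41 against 45 in 22Rv1 (0.41, not called, and -1.68 after centring) and 43 against 37 in HPr1AR (1.41, interval 0.74 to 2.08). PSMB3 was called higher at its 5′ end with 21 against 11 reads in 22Rv1 (1.48) and 38 against 36 in HPr1AR (1.27), and centring turns these to -0.61 and -0.02. The PSMB3 5′ end of LNCaP, with 26 against 35 reads, was not called.

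PSMB7, the trypsin-like subunit, was called only in regions shared with other genes, in every line. They lie together, at chr9:127112661-127117070 and chr9:127117061-127121460 in LNCaP, and overlap exons of LOC100129034, the first one also exons of NEK6. The first held 59 against 18 reads in LNCaP (2.89, lower limit 2.11), 77 against 4 in 22Rv1 (4.81, interval 3.40 to 6.73) and 48 against 8 in HPr1AR (3.78, interval 2.68 to 5.07). The promoter-marked exon of PSMB7, which overlaps no other gene, held 11 against 33 reads in LNCaP, 13 against 22 in 22Rv1 and 29 against 59 in HPr1AR, and was not called in any line.

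PSMB1, a structural beta subunit, was called at its promoter-marked 5′ end with 53 against 37 reads in LNCaP (1.70), 30 against 23 in 22Rv1 (0.93, and -1.16 after centring) and 38 against 32 in HPr1AR (1.44). PSMB2, also structural, was called higher in 5 of 18 regions in LNCaP, 3 of 8 in 22Rv1 and 4 of 15 in HPr1AR. The one with the smallest adjusted p in LNCaP, an exon within the span of TFAP2E, held 49 against 2 reads (5.79, interval 3.86 to 8.88), and the one at the same place in 22Rv1 held 16 against 0 (at least 2.96). An internal PSMB2 exon of LNCaP held 1 against 18 reads and was called lower (-2.99, interval -8.37 to -0.33). PSMB10, the interferon-inducible counterpart of PSMB7, was called higher in every line in the region over its gene body and in a further one shared with CTRL. The first held 40 against 8 reads in LNCaP (3.50, interval 2.39 to 4.81), 45 against 10 in 22Rv1 (2.72, 1.71 to 3.87) and 33 against 16 in HPr1AR (2.23, 1.33 to 3.20). The region shared with CTRL held 18 against 2, 21 against 2 and 12 against 0 reads in LNCaP, 22Rv1 and HPr1AR.

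Of the 6 ATPase genes PSMC1 to PSMC6, 5 had a region called higher in LNCaP, 4 in 22Rv1 and 6 in HPr1AR, and the shares of regions were 8 of 22 (36.4%), 9 of 20 (45.0%) and 10 of 31 (32.3%). Beside these stand 90.2%, 90.4% and 92.4% of all listed genes, and 38.0%, 54.3% and 38.0% of all regions. PSMC4, an ATPase of the ring that unfolds the substrate, was called at its promoter-marked 5′ end in every line. This region held 61 against 4 reads in LNCaP (5.11, interval 3.68 to 7.03), 15 against 2 in 22Rv1 (3.45, 1.35 to 6.63) and 25 against 28 in HPr1AR (1.03, 0.19 to 1.86, and -0.26 after centring). The listed region started at position 40475991 of chromosome 19 in LNCaP and at 40477081 in HPr1AR, and no test compared the lines. PSMC1, another ATPase of the ring, was called higher at an internal place shared by the lines, chr14:90735571-90737330 in LNCaP, listed as an exon in LNCaP and HPr1AR and as an intron in 22Rv1. It held 18 against 1 reads in LNCaP (5.35, interval 2.69 to 10.7), 19 against 1 in 22Rv1 (4.80, 2.14 to 10.2) and 10 against 0 in HPr1AR (at least 2.93). An internal exon before it held 25 against 3 reads in LNCaP (4.24, interval 2.52 to 6.61) and 22 against 0 in 22Rv1 (at least 3.42), and an HPr1AR region there, listed as an intron, held 11 against 5 (2.33). All of these were called higher.

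PSMC2 was called higher at its 3′ end in LNCaP, with 24 against 25 reads (1.12, interval 0.25 to 1.99, which centring turns to -0.23), a call lost at the smallest possible pair of reads. It was also called at its 5′ end in HPr1AR, with 21 against 14 reads (1.78, interval 0.73 to 2.86), while the 5′ end in 22Rv1, with 16 against 12, was not called. PSMC6 was called in HPr1AR alone, at a 5′ end of 9 against 4 reads (2.36, interval 0.52 to 4.51). Its listed regions in LNCaP and 22Rv1 held 9 and 4 m6A reads in all. PSMC3 was called at its 5′ end with 51 against 43 reads in LNCaP (1.42), 25 against 14 in 22Rv1 (1.38, which centring turns to -0.71) and 29 against 25 in HPr1AR (1.40). PSMC5 was called in a 5′ end region shared with FTSJ3, with 28 against 0, 35 against 22 and 37 against 18 reads in LNCaP, 22Rv1 and HPr1AR, and centring turns the 22Rv1 ratio of 1.22 to -0.87.

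The 11 base and lid genes that are not ATPases were called in 10 genes in LNCaP, 11 in 22Rv1 and 11 in HPr1AR, but in a small share of regions, 14 of 82 (17.1%), 18 of 59 (30.5%) and 21 of 124 (16.9%). The shares were 90.2%, 90.4% and 92.4% over all listed genes, and 38.0%, 54.3% and 38.0% over all regions. PSMD7, the partner of the deubiquitinase PSMD14 in the lid, was called at its 3′ end in every line, with very few IgG reads in 22Rv1. The region, chr16:74338241-74341210 in LNCaP, held 55 against 2 reads in LNCaP (5.96, lower limit 4.04), 64 against 2 in 22Rv1 (5.55, interval 3.64 to 8.62) and 53 against 3 in HPr1AR (5.33, lower limit 3.71). At these reads, which are the smallest allowed in LNCaP and HPr1AR, adjusted p by the exact binomial test was 7.32e-24 in LNCaP, 5.83e-21 in 22Rv1 and 6.73e-22 in HPr1AR. The PSMD7 5′ end was also called, at no fewer than 16 against 13, 13 against 2 and 20 against 18 reads in LNCaP, 22Rv1 and HPr1AR.

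PSMD11, a lid subunit known to raise proteasome assembly in human embryonic stem cells, was called at its 3′ end and at none of its other listed regions. The 3′ end, chr17:30806261-30809350 in LNCaP, held 58 against 14 reads in LNCaP (3.23, lower limit 2.37), 71 against 8 in 22Rv1 (3.70, interval 2.64 to 4.96) and 57 against 20 in HPr1AR (2.70, lower limit 1.94). The other 9 regions of LNCaP, 3 of 22Rv1 and 12 of HPr1AR had log2 ratios between -1.98 and 1.18. PSMD1, a large scaffold subunit of the base, was called at its 3′ end with 18 against 8 reads in LNCaP (2.35), 22 against 9 in 22Rv1 (1.84, which centring turns to -0.25) and 19 against 16 in HPr1AR (1.44). Inside the gene, an exon of PSMD1 was called lower in LNCaP with 1 against 20 reads (-3.14, interval -8.52 to -0.50). In 22Rv1 the overlapping region, with 0 against 10 reads, and another with 0 against 11 reads were called lower, at a log2 ratio of at most -1.19 and at most -1.33. The HPr1AR region there, with 0 against 9 reads, was not called.

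**Figure D4:**
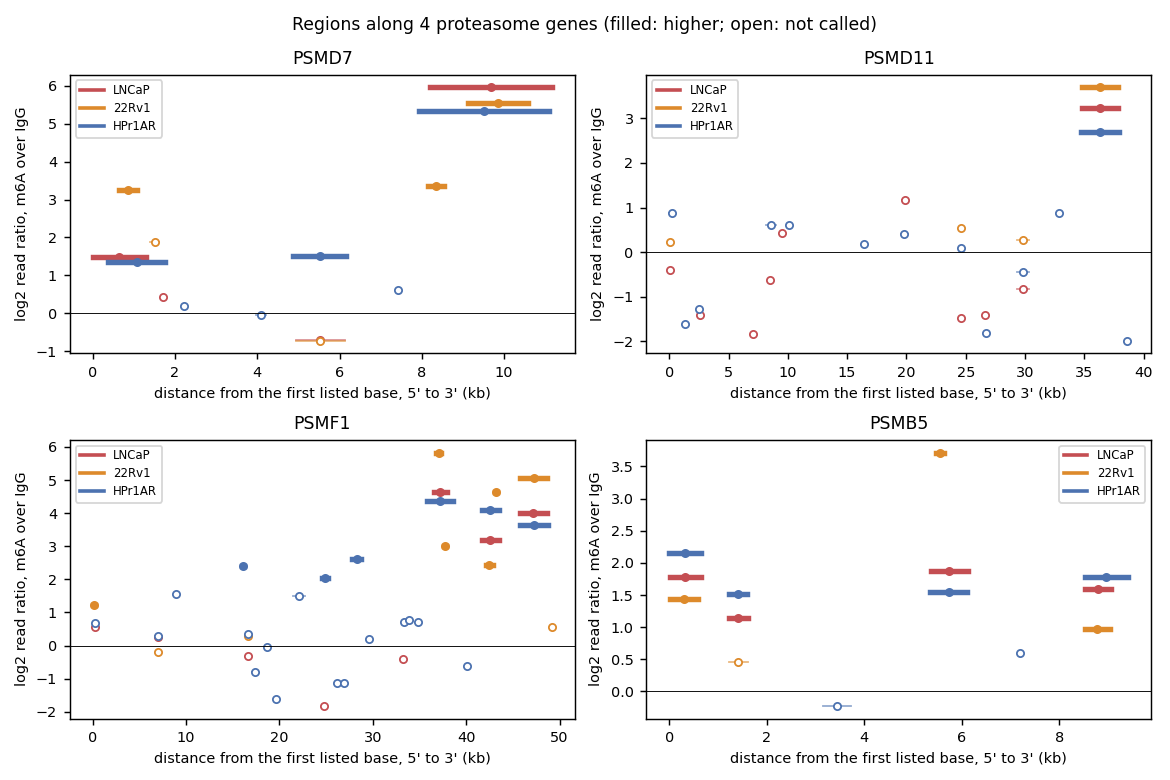
Log2 ratio of m6A to IgG reads (vertical axis) of every listed region of PSMD7, PSMD11, PSMF1 and PSMB5 against its distance in kb from the first listed base of the gene, read 5′ to 3′ (horizontal axis). Bars span the regions, and filled points were called higher; PSMD11 is called at its 3′ end alone (3.23, 3.70 and 2.70), PSMF1 over introns and its 3′ end, and PSMB5 along most of its length.

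PSMD14, the deubiquitinase of the lid, had no region called in LNCaP. Among its LNCaP regions the one with the smallest adjusted p held 0 against 9 reads and was not called (-0.41 with the floor of 3 m6A reads, and an interval that reaches 0.20). It was called at the 5′ end in 22Rv1, with 11 against 3 reads (2.42, interval 0.50 to 4.90), and in an intron in HPr1AR, with 39 against 20 (2.15, interval 1.34 to 3.01). Other lid and base genes called at a shared 3′ end in every line were PSMD8, PSMD12 and PSMD13. PSMD13 held 61 against 30 reads in LNCaP (2.20, lower limit 1.55), 60 against 23 in 22Rv1 and 58 against 27 in HPr1AR (2.29, lower limit 1.61). PSMD12 held 44 against 16, 37 against 13 and 54 against 35 reads in LNCaP, 22Rv1 and HPr1AR. Centring turns the 22Rv1 ratios of PSMD13 (1.93) and PSMD12 (2.06) to -0.16 and -0.04. PSMD8 held 62 against 31 reads in LNCaP (2.18), 36 against 17 in 22Rv1 (1.63, and -0.46 after centring) and 46 against 50 in HPr1AR (1.07, and -0.22 after centring). PSMD3 was called at its promoter-marked 5′ end, whose promoter is printed above, with 64 against 55 reads in LNCaP (1.40, lower limit 0.85), 46 against 35 in 22Rv1 (0.94, and -1.15 after centring) and 60 against 44 in HPr1AR (1.64, lower limit 1.05). PSMD2, a scaffold and ubiquitin receptor of the base, was called inside the gene and at its 3′ end in LNCaP, at the 3′ end in 22Rv1 and at the 5′ end and inside in HPr1AR, and centring turns all of these below 0 except the internal one of LNCaP. PSMD4, a ubiquitin receptor, was called at its 3′ end in LNCaP with 44 against 33 reads and in HPr1AR with 33 against 35 (1.11, and -0.18 after centring), and in 22Rv1 in a promoter-marked intron with 11 against 2. PSMD6 was called in an intron over an exon of its antisense gene PSMD6-AS2, with 9 against 1, 36 against 1 and 17 against 1 reads.

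The 7 assembly chaperones had 5 genes called higher in LNCaP, 5 in 22Rv1 and 7 in HPr1AR, beside 90.2%, 90.4% and 92.4% of all listed genes. PSMD5, which guides the ATPase ring, was called at its 3′ end with 27 against 0 reads in LNCaP (at least 4.35, the one PSMD5 region listed there), 74 against 7 in 22Rv1 (3.95, interval 2.84 to 5.31) and 58 against 27 in HPr1AR (2.29, lower limit 1.61). Its promoter-marked 5′ end, shared with CUTALP, held 57 against 0 reads in 22Rv1 (at least 4.80) and 54 against 7 in HPr1AR (4.14, lower limit 3.00). PSMD9, also a chaperone of the ATPase ring, was called at its 3′ end with 39 against 24, 44 against 22 and 49 against 28 reads in LNCaP, 22Rv1 and HPr1AR, and centring turns the 22Rv1 ratio of 1.55 to -0.54. PSMD10, also known as gankyrin, was called at its 5′ end with 9 against 4 reads in LNCaP (2.35, interval 0.51 to 4.50) and 13 against 4 in HPr1AR (2.89, 1.20 to 4.97), and in no region of 22Rv1.

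PSMG1 to PSMG4 help build the alpha ring. PSMG3 was called at its 3′ end with 60 against 24 reads in LNCaP (2.50, lower limit 1.80), 62 against 22 in 22Rv1 (2.04, and -0.05 after centring) and 58 against 28 in HPr1AR (2.24, lower limit 1.57). PSMG4 was called at its 5′ end with 24 against 1 reads in LNCaP (5.76, interval 3.15 to 11.1), 21 against 3 in 22Rv1 (3.35) and 17 against 5 in HPr1AR (2.96). A further LNCaP region at the 3′ end of PSMG4 reached into SLC22A23 and held 56 against 6 reads (4.40, lower limit 3.19). The 3′ ends listed for 22Rv1 and HPr1AR, which overlap no other gene, held 2 against 5 and 7 against 7 and were not called. PSMG1 was called at its 5′ end with 23 against 9 reads in 22Rv1 (1.90, which centring turns to -0.19) and 26 against 18 in HPr1AR (1.72), and not in LNCaP, where 16 stood against 15. PSMG2 was called in HPr1AR alone, in introns that overlap exons of CEP76, with 13 against 0 and 9 against 5 reads.

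All 4 activator genes and the inhibitor gene PSMF1 had a region called higher in every line, beside 86.4% of all genes listed in the 3 lines. PSME4, which encodes the large activator PA200, was called at both ends. Its 3′ end, chr2:54091931-54094020 in LNCaP, held 58 against 14 reads in LNCaP (3.23, lower limit 2.37), 63 against 7 in 22Rv1 (3.72, interval 2.59 to 5.09) and 58 against 24 in HPr1AR (2.46, lower limit 1.75). A promoter-marked exon at the other end, chr2:54197661-54198180 in LNCaP, held 55 against 7 reads in LNCaP (4.15), 44 against 14 in 22Rv1 (2.20) and 58 against 27 in HPr1AR (2.29, lower limit 1.61). Between the ends most regions of PSME4 were not called, so that the median log2 ratio over its 17 regions in LNCaP, 17 in 22Rv1 and 35 in HPr1AR was -0.56, -0.19 and -0.13. PSME1 and PSME2, the subunits of the interferon-inducible activator PA28, were called in regions shared with exons of EMC9 and RNF31. PSME3, the subunit of the nuclear activator PA28-gamma, was called in a promoter-marked exon with 51 against 33 reads in LNCaP (1.81), 48 against 33 in 22Rv1 (1.09, and below 0 after centring) and 61 against 53 in HPr1AR (1.39, lower limit 0.84). PSME1 had its shared region alone, with 27 against 10, 29 against 6 and 22 against 12 reads in LNCaP, 22Rv1 and HPr1AR.

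PSMF1, also called PI31, is the only gene of its role class. Over all regions the shares called higher were 38.0% in LNCaP, 54.3% in 22Rv1 and 38.0% in HPr1AR. Those of PSMF1 were 3 of 8 in LNCaP (37.5%), 6 of 9 in 22Rv1 (66.7%) and 6 of 21 in HPr1AR (28.6%). The 22Rv1 share of PSMF1 was the largest among the role classes in that line, but rests on 9 regions. Its 3′ end, chr20:1144951-1147900 in LNCaP, held 57 against 8 reads in LNCaP (4.01, lower limit 2.94), 69 against 3 in 22Rv1 (5.07, interval 3.46 to 7.38) and 55 against 10 in HPr1AR (3.65, lower limit 2.66). An intron region upstream of it held 44 against 4 reads in LNCaP (4.64, interval 3.18 to 6.58), 39 against 1 in 22Rv1 (5.83, 3.27 to 11.2) and 54 against 6 in HPr1AR (4.36, lower limit 3.15). Both places overlap no other gene and were called in every line also after centring.

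Several places were shared by the lines. Regions called higher that overlap one another in LNCaP, 22Rv1 and HPr1AR were found for 29 of the 45 genes, beside 83.8% of all 12713 genes listed in the 3 lines. When regions over an exon of another gene were left out they were found for 23, beside 71.4% of all genes. At the 3′ end there were 15 such genes, beside 53.1% of all genes, namely PSMA4, PSMB10, PSMB5, PSMB7, PSMD1, PSMD11, PSMD12, PSMD13, PSMD5, PSMD7, PSMD8, PSMD9, PSME4, PSMF1 and PSMG3. After centring, 6 of the 15 remained, which were PSMB7, PSMD11, PSMD5, PSMD7, PSME4 and PSMF1. Regions with no listed exon upstream within 10000 bp were shared in this way by 11 genes, beside 22.6% of all genes. In 9 of the 11, including PSMA1, PSMC3, PSMC5 and PSMD3, they carried the promoter mark, and none of these 9 remained after centring. Those of PSMB2 and PSMB7 carried no promoter mark. The one of PSMB7, which remained after centring, adjoins the 3′ end region of that gene and is not its start. Shares of all genes that keep a shared place after centring are not given here.

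Regions of the family that overlap an exon of another gene had a larger share called, a difference that was not tested. They gave 14 of 25 in LNCaP (56.0%), 14 of 22 in 22Rv1 (63.6%) and 14 of 29 in HPr1AR (48.3%). Family regions with no other gene gave 51 of 228 (22.4%), 54 of 176 (30.7%) and 66 of 339 (19.5%). Over all genes, pairs of a gene and a region over an exon of another gene were called higher in 63.4% in LNCaP, 68.0% in 22Rv1 and 64.6% in HPr1AR, and pairs with no other gene in 34.4%, 49.8% and 33.8%. The calls of PSMB7, PSMC5, PSME1 and PSME2 rest on such shared regions in all lines, and reads there cannot be assigned to one of the genes.

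Of 28 genes chosen for the ubiquitin-proteasome pathway, 27 were listed, and regions called higher were 16.9% in LNCaP, 23.9% in 22Rv1 and 19.9% in HPr1AR, with median log2 ratios of -0.04, 0.23 and 0.00. At least 1 region was called in 23 of 27 genes in LNCaP, 19 in 22Rv1 and 24 in HPr1AR, beside 90.2%, 90.4% and 92.4% of all listed genes. In every line at once 19 of the 27 were called, beside 86.4% of all genes listed in the 3 lines. NFE2L1, the transcription factor of the proteasome genes, had 4 of 6 regions called in LNCaP, 5 of 5 in 22Rv1 and 4 of 6 in HPr1AR, and its region of 22Rv1 with the smallest adjusted p held 87 against 10 reads. The other 3 pathway genes with the smallest adjusted p in any line were UFD1 with 56 against 4 reads in LNCaP (4.99, lower limit 3.55), ZFAND5 with 53 against 3 in HPr1AR (5.33, lower limit 3.71) and NPLOC4 with 89 against 12 in 22Rv1. The core assembly factor POMP and the ubiquitin gene UBB had no region called in any line, with 34 against 75, 32 against 46 and 45 against 70 reads for UBB in LNCaP, 22Rv1 and HPr1AR.

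Beside other families, the proteasome genes lay between the eIF3 subunits and the USP deubiquitinases in every line by share of regions called. The eIF3 genes, which encode a translation initiation factor, gave 16.2% in LNCaP, 15.9% in 22Rv1 and 13.0% in HPr1AR. The USP genes gave 27.7%, 38.9% and 25.4%, and the cytosolic ribosomal protein genes 26.3%, 22.6% and 28.9%. At least 1 region was called in 36, 38 and 42 of 45 proteasome genes in LNCaP, 22Rv1 and HPr1AR (80.0%, 84.4% and 93.3%). The same held for 52 of 87, 39 of 86 and 56 of 88 listed ribosomal protein genes (59.8%, 45.3% and 63.6%). Over all listed genes it held for 90.2%, 90.4% and 92.4%. These shares are descriptions of lists that were not tested against each other.

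**Figure D5:**
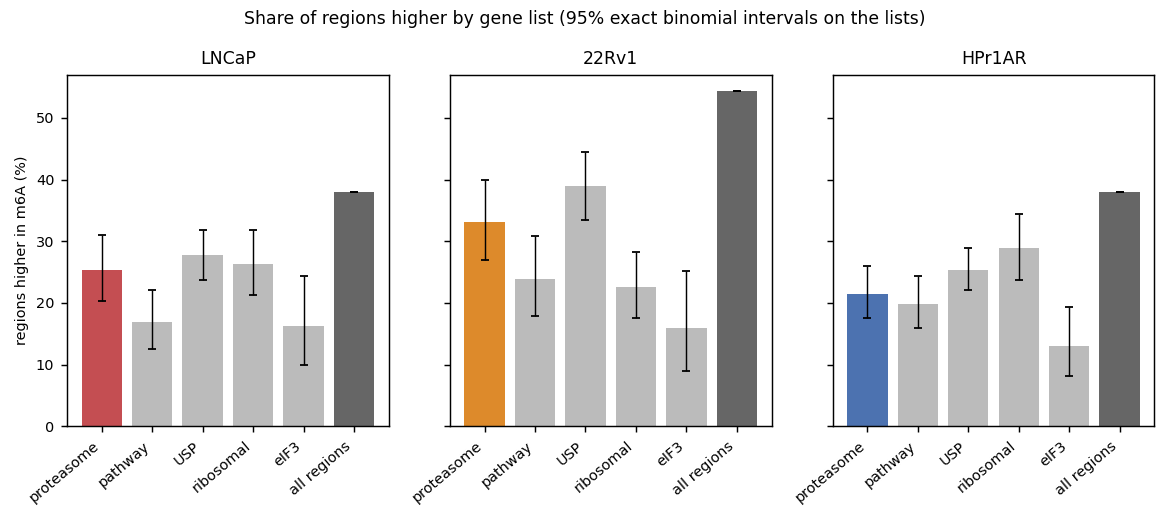
Share of regions called higher (vertical axis, percent) in each line for the proteasome family, 28 pathway genes, USP genes, cytosolic ribosomal protein genes, eIF3 genes and all regions, with 95% exact binomial intervals on the lists. All 5 lists stand below all regions in each line, and the proteasome stands at 25.4% in LNCaP, 33.2% in 22Rv1 and 21.5% in HPr1AR.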

How the data were processed

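The 17 samples, m6A or IgG pull-downs of 3 lines, were put into 6 groups by line and antibody from their labels. Per the file headers, the authors deposited for each line a table of regions with a combined p-value and its adjusted value over the table, and a log2 fold for a representative window that they chose. The submitters' processing notes name hg38, which the positions did not match: 132 of 872 pairs of a member region and its gene (15.1%) overlapped that gene's GRCh38 span, so positions are given as deposited. For the aligner, the read counter with its strand setting and the authors' test, details were not given in the sources used here. Since no deposited value belongs to a single sample, p-values here measure counting error within a table and not the spread between samples. They take the representative window as given. If it was chosen by its result, they are too small.

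The deposited log2 fold followed log2 of m6A reads minus 2 times log2 of IgG reads, each with a fitted prior, plus a constant. Whole reads were sought that gave each fold and p-value, with up to 150 m6A reads, and were found for 98.5% of regions with p above 0 in LNCaP, 99.8% in 22Rv1 and 100.0% in HPr1AR. After a random shift of the folds, reads were found for 14.8%, 1.14% and 1.06%, so LNCaP reads are the least certain. Of several pairs, the one nearest the deposited fold was taken. Which pull-down is the numerator is not stated and was taken to be m6A. The read ratio was tested by an exact binomial test (two-sided, doubling the smaller tail) with Benjamini-Hochberg adjustment over all regions of a line at 0.05. This test rests on rebuilt reads, since the tables hold no counts. Intervals are exact Clopper-Pearson at 95%, and the floor is 3 reads. The steps were also run on simulated reads, with folds and p-values made by the same fitted formula, a single window per region and no spread between samples. Family regions had a median of 23 windows in LNCaP, 24 in 22Rv1 and 17 in HPr1AR. That run therefore cannot tell how well reads were rebuilt for the deposited regions.

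Members and lists were chosen with earlier results of these data known. Genes named with values are those with the smallest adjusted p per line (6 higher, 4 lower or lowest), those called higher in some lines only, the catalytic subunits with their inducible counterparts, and 4 pathway genes; genes called at a place shared by all lines were added after their values were seen. Comparison lists were ribosomal protein, eIF3, USP and 28 pathway genes, of which BAG6 is not analysed here. Python 3.11.15, numpy 2.4.6, scipy 1.17.1, pandas 2.3.3 and matplotlib 3.10.9 were used.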

Additional observations from a re-analysis of the deposited data

How the results depend on the processing

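At an adjusted p threshold of 0.01, 26.2% of family regions were called higher in 22Rv1 and 15.1% in HPr1AR, and 36.4% of 5′ ends in 22Rv1. With exon overlaps only, HPr1AR gave 26.8%, and 99.1% by the adjusted p of the authors' deposited table. Regions of at least 10 reads gave 34.1% in LNCaP and 27.2% in HPr1AR. Regions above a read rate shared by the lines (0.739 CPM) gave 34.1% in LNCaP and 35.0% in HPr1AR, with an HPr1AR median log2 ratio of 0.61. Centred on the median of all regions, 11.6%, 7.01% and 6.92% of regions were called higher in LNCaP, 22Rv1 and HPr1AR, with medians of -0.96, -1.62 and -1.10, 44.4%, 22.2% and 40.0% of genes, and 15.6% of genes in every line. With regions of a single pair of reads only, LNCaP gave 16.0% of regions, a median of -0.045 and 40.5% of genes, and 35.7% of genes were called in every line; with only the regions of several pairs left out, chosen after seeing the data, LNCaP gave a median of 0.0079 and 57.1% of genes, and 52.4% of genes were called in every line. The cause was not tested. For the threshold of 0.01, the read limits and the choices of pairs, shares over all regions under the same limit are not given here. Shares of all genes after centring or under the choices of pairs are not given either. These values therefore cannot be set beside the shares of all regions and genes given earlier without such limits.

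Centring turned the sign of the ratio at the region with the smallest adjusted p in 8 of 45 genes in LNCaP, 17 in 22Rv1 and 9 in HPr1AR, of which 4, 15 and 7 had been called higher. Among the genes named by the stated rule, those with a call before or after centring were PSMA4 (-0.49 in LNCaP, -0.43 in HPr1AR), PSMA7 (-0.32 in LNCaP, -0.28 in HPr1AR), PSMA8 (-1.03 in LNCaP), PSMB3 (-0.61 in 22Rv1, -0.018 in HPr1AR), PSMB4 (-0.028 in LNCaP, -1.68 in 22Rv1), PSMB5 (-0.66 in 22Rv1), PSMB6 (-1.18 in 22Rv1), PSMC2 (-0.23 in LNCaP), PSMC4 (-0.26 in HPr1AR), PSMD1 (-0.25 in 22Rv1) and PSMG1 (-0.19 in 22Rv1). Choosing the region by m6A reads gave PSMA4 of 22Rv1 a ratio of 0.97. Taking regions of proteasome genes alone, adding symbols with a suffix and a floor of 1 read moved no summary past its limit. The same held for 3 further alternatives chosen after seeing the data: no exon of another gene, leaving out the 4 genes with most regions, and the smallest pair of reads.

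No paired analysis was possible because the tables hold no value for a single sample, and leaving out a replicate was not possible for the same reason. Depth limits single regions, whose median was 15 reads in LNCaP, 19 in 22Rv1 and 13 in HPr1AR.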
